A study of Homo sapiens with 6 samples.

Results

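The genes described here make, sense and remove prostaglandin E2, and there were 8 of them among the 60683 genes of the count table. They were chosen by name for their role, with earlier results of these data known. PLA2G4A releases arachidonate, PTGS1 and PTGS2 are the cyclooxygenases, PTGES and PTGES2 are prostaglandin E synthases, PTGER2 and PTGER4 are receptors, and HPGD breaks the product down. Messenger RNA was measured by sequencing in 143B cells, an osteosarcoma line that was derived by transformation from the HOS line. There were 3 libraries from cells given TPBC-PEG for 24 h and 3 from cells given PBS for 24 h. The dose is not settled, being 3 µM TPBC-PEG in the sample titles and 300 µM in the protocol. The series title and design name photodynamic therapy, in which a compound forms reactive oxygen species under light, but the labels of the TPBC-PEG samples do not say whether these cells were lit. All samples are of 1 cell line. The labels do not tell whether replicates came from separate cultures, so p-values here are set against a spread that may be only technical.

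Prostaglandins are made from arachidonate, a fatty acid that cytosolic phospholipase A2 cuts from membrane phospholipid. A cyclooxygenase turns it into the unstable prostaglandin H2, which terminal synthases convert to prostaglandin E2 and other prostanoids. Prostaglandin E2 leaves the cell and acts through receptors on the cell surface, of which EP2 and EP4 raise cyclic AMP, and it is inactivated after uptake by the dehydrogenase that HPGD encodes. In bone, prostaglandin E2 is known to act on both osteoblasts and bone resorption, and the inducible cyclooxygenase is found in many tumours.

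The libraries held 15726323 to 20486584 counts. A gene was tested where its counts passed a filter on low values, and 6 of the 8 genes did. PTGS1 and HPGD did not. Of the osteoblast and osteosarcoma markers, 8 of 9 were high enough to be tested, among them VIM, SPARC and RUNX2, while COL1A2, a collagen chain of bone, had 0 to 2 counts in every library. Of 5 epithelial markers 3 were tested (KRT8, KRT18 and EPCAM), and the summed level of all 5 ran from 679 to 742 CPM (counts scaled to the library size) in the TPBC-PEG libraries and from 902 to 942 CPM in the PBS libraries; the part of this in the results was not tested. Most of the sum was KRT18, at a mean of 568 CPM with TPBC-PEG and 762 CPM with PBS, and KRT8, at 121 and 139 CPM. These keratins were called lower (edgeR quasi-likelihood, adjusted p = 4.98e-13 and 0.000126) and EPCAM did not pass. CDH1 and KRT5 had 0 to 3 counts in every library. The 9 osteoblast and osteosarcoma markers summed to 2743 to 2861 CPM in the TPBC-PEG libraries and 3048 to 3091 CPM in the PBS libraries. Most of this was VIM, at a mean of 2344 CPM with TPBC-PEG and 2577 CPM with PBS. With edgeR quasi-likelihood, RUNX2 and SPP1 were called higher, and COL1A1, SPARC and VIM lower. S100A4 was low, at 0.837 CPM with TPBC-PEG and 1.22 CPM with PBS. Exons of VIM and KRT18 overlap other genes over 24.4% and 16.3% of their length. The 6 leukocyte markers summed to 0.188 to 0.462 CPM in the TPBC-PEG libraries and 0.0522 to 0.222 CPM in the PBS libraries. The 4 markers of endothelium summed to 0.815 to 1.16 CPM in the TPBC-PEG libraries and 1.05 to 1.14 CPM in the PBS libraries. The 4 markers of mast cells and platelets summed to at most 0.0514 CPM in the TPBC-PEG libraries and 0.126 CPM in the PBS libraries, with TPSAB1 and PF4 at 0 in all 6.

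With TPBC-PEG the inducible cyclooxygenase gene PTGS2 rose 4.46-fold, while the prostaglandin E synthase gene PTGES2 and the receptor gene PTGER4 fell, to 0.784 and 0.666 of the PBS level. PLA2G4A, PTGES and PTGER2 did not pass the test. Thus 1 of the 6 tested genes was higher and 2 were lower at a threshold of 0.05 on the edgeR quasi-likelihood p, adjusted by Benjamini-Hochberg over all genes. Of all 15846 genes tested, 33.2% were called, 16.2% as higher and 16.9% as lower, beside 3 of these 6, and with so few genes the share shows little either way. The split over all genes was 2574 higher and 2682 lower, and with library size alone as the scaling it was 3213 and 1971. The groups did not overlap for 3 of the 6 tested genes, the same 3 that were called, beside 43.4% of all genes tested. RNA came from whole cultures, so a change in the share of cells that carry a transcript and a change in its amount per cell cannot be told apart.

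**Figure D1:**
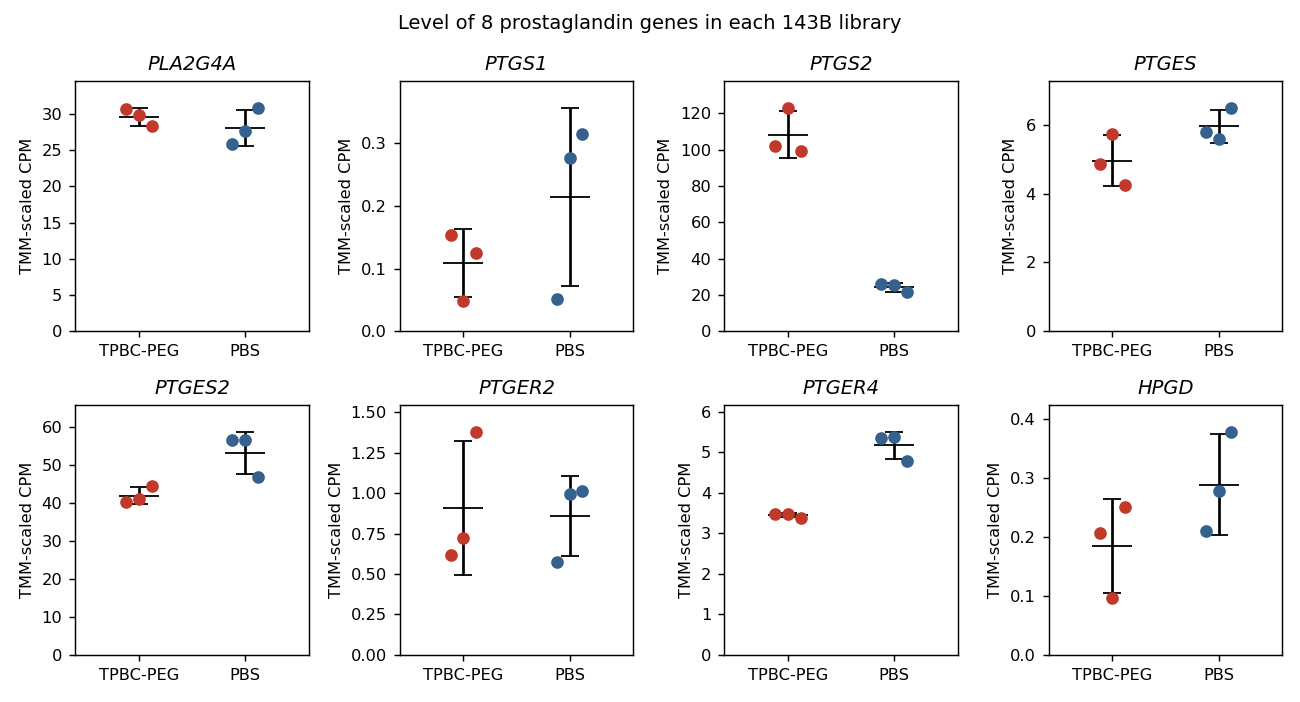
TMM-scaled CPM of each gene in each library (points), with the mean and SD of 3 libraries (black), for TPBC-PEG on the left and PBS on the right of each panel; each vertical axis starts at 0 and has its own range. PTGS2 lies between 99.3 and 123 CPM in TPBC-PEG libraries and between 21.5 and 25.8 CPM in PBS libraries.

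The first step, release of arachidonate, is carried by PLA2G4A, the calcium-dependent cytosolic phospholipase A2. Its level was 30.7, 29.9 and 28.3 CPM in the TPBC-PEG libraries, against 25.8, 27.7 and 30.8 CPM in the PBS libraries. The groups overlapped, and the highest PBS library stood above every TPBC-PEG library. The log2 fold change was 0.08 ± 0.074 (SE), with a 95% interval of -0.06 to 0.23, and did not pass the test (edgeR quasi-likelihood, adjusted p = 0.422). It was 0.02 without PBS replicate 1 and 0.15 without PBS replicate 3. PLA2G4A lies on chromosome 1, 186828953 to 186988981 on the plus strand (GRCh38), 149 kb from PTGS2, which is on the minus strand of the same chromosome from 186671791 to 186680427.

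The cyclooxygenase step was represented almost wholly by PTGS2. PTGS2, the inducible enzyme that growth factors, cytokines and stress are known to switch on, had 1990, 2553 and 1583 counts in the TPBC-PEG libraries, against 494, 459 and 341 counts in the PBS libraries. Scaled to library size, these were 102, 123 and 99.3 CPM with TPBC-PEG and 25.8, 25.4 and 21.5 CPM with PBS. Every TPBC-PEG library was far above every PBS library, and TPBC-PEG replicate 2 was the highest. The means were 108 ± 13 CPM with TPBC-PEG and 24.2 ± 2.37 CPM with PBS (SD, n = 3 each). The log2 fold change was 2.16 ± 0.089 (SE), with a 95% interval of 1.96 to 2.35 (edgeR quasi-likelihood, adjusted p = 1.83e-10). Ranked by fold change, PTGS2 was number 16 from the top of the 15846 genes tested, and 5 genes that reached 5 CPM in a group had a larger rise. PTGS2 also passed the test against a 1.5-fold change, which 0.915% of all genes did.

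PTGS1, the cyclooxygenase that many tissues make without a stimulus and that platelets depend on, was close to absent. It had 3, 1 and 2 counts in the TPBC-PEG libraries, against 1, 5 and 5 counts in the PBS libraries. Over the 3 libraries of a group this made 6 counts with TPBC-PEG and 11 with PBS, a ratio of 0.516 after scaling with a 95% exact counting interval of 0.157 to 1.52. This interval covers counting error only and holds a fall as well as a rise of up to 1.52-fold. No direction for PTGS1 was shown at this depth. Per kilobase of exon, PTGS2 made up 99.86, 99.96 and 99.89% of the sum of both cyclooxygenase mRNAs in the TPBC-PEG libraries, against 99.82, 99.02 and 98.68% in the PBS libraries. The groups did not overlap, but the difference of 0.731 percentage points rests on the few PTGS1 counts, and the two-sided exact permutation p of 0.1 (n = 3 each) is the smallest that 3 against 3 can give.

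The stretch before the PTGS2 start is shown because PTGS2 is the gene with the large change, and that of PTGES because PTGES is the synthase best known for being induced along with PTGS2. Both are the 250 bases before the RefSeq start (GRCh38.p14, minus strand), and RefSeq had such windows for 8 of the 8 genes. PTGS2 is read from chr1:186680424-186680673 and PTGES from chr9:129753043-129753292. Capitals mark matches to the motifs named next, apart from the E-box.
PTGS2: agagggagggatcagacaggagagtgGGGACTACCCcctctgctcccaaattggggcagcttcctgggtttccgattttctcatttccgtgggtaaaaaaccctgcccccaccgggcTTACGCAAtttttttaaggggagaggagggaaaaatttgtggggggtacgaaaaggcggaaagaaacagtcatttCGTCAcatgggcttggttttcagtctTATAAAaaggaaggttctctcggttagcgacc
PTGES: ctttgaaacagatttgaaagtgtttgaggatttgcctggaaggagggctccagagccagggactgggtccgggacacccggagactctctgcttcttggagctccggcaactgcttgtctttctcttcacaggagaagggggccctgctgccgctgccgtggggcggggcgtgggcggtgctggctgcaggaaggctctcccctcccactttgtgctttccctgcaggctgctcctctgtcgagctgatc

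Motifs were searched on both strands. In the PTGS2 window the TATA box letters TATAAA stood 32 to 27 bases before the start, and 10.7% of all 35116 such windows held them. The letters TGACG, the core of the cyclic AMP response element, matched on the other strand at 58 to 54 bases before the start (21.2% of windows). The C/EBP pattern TTNNGCAA matched at 133 to 126 bases (9.05% of windows), and the kappaB-like pattern, GGGA and CC parted by any 4 bases, at 224 to 215 bases (22.6% of windows). An E-box, CANNTG, at 55 to 50 bases overlapped the end of the TGACG match and is common, in 61.8% of windows. The pattern TGATGNAA, which C/EBP and ATF factors bind as pairs, was not in the PTGS2 window (3.14% of windows). Of these 6 patterns the PTGES window held an E-box, from 143 to 138 bases before its start, and none of the others. Windows of other members did hold some of these patterns. PTGER4, which fell, had 2 kappaB-like matches, and PTGER2 had TGACG. Windows of PTGS1 held TATAAA and a kappaB-like match, and those of HPGD held TGACG and a kappaB-like match. Of the patterns found for PTGS2, only the C/EBP pattern was absent from the windows of all other members. A match is a description of letters and not a sign that a factor was bound in these cells.

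Among the synthases, PTGES encodes the microsomal enzyme that is known to work with PTGS2. It had 4.88, 5.74 and 4.26 CPM in the TPBC-PEG libraries, against 5.79, 5.6 and 6.5 CPM in the PBS libraries. The ranges overlapped through TPBC-PEG replicate 2, while the other TPBC-PEG libraries were below all PBS libraries. The log2 fold change was -0.25 ± 0.155 (SE), with a 95% interval of -0.56 to 0.06 (edgeR quasi-likelihood, adjusted p = 0.227). It was -0.16 without TPBC-PEG replicate 3. The interval with all libraries lies wholly below the interval of PTGS2, although the difference between the genes was not tested.

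PTGES2 encodes a second membrane-associated enzyme described as a prostaglandin E synthase, whose share in prostaglandin E2 production in mice is disputed. It had 40.2, 41 and 44.5 CPM in the TPBC-PEG libraries, against 56.4, 56.4 and 46.8 CPM in the PBS libraries. The groups did not overlap, although PBS replicate 3 came close to TPBC-PEG replicate 3. PTGES2 averaged 41.9 ± 2.25 CPM with TPBC-PEG and 53.2 ± 5.56 CPM with PBS (SD, n = 3 each), a log2 fold change of -0.35 ± 0.065 (SE; edgeR quasi-likelihood, adjusted p = 3.13e-05). Tested against a 1.5-fold change in place of none it did not pass.

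Per kilobase of exon, PTGES made up 16.28, 18.33 and 13.32% of the summed PTGES and PTGES2 mRNA in the TPBC-PEG libraries, against 14.12, 13.72 and 18.2% in the PBS libraries. The groups overlapped, and the means of 15.98 ± 2.52% with TPBC-PEG and 15.35 ± 2.48% with PBS did not differ beyond their spread (two-sided exact permutation p = 0.9, SD, n = 3 each). The sign of this small difference of 0.63 percentage points turned without TPBC-PEG replicate 2 (-0.545) and without PBS replicate 2 (-0.183).

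The receptors stood at low levels. PTGER4, which encodes EP4, had 68, 72 and 54 counts in the TPBC-PEG libraries, against 103, 97 and 76 counts in the PBS libraries. Scaled, it had 3.49, 3.47 and 3.39 CPM with TPBC-PEG and 5.37, 5.38 and 4.79 CPM with PBS. The 3 TPBC-PEG values lay close together and below every PBS value. PTGER4 fell by 0.59 ± 0.17 on the log2 scale (SE; edgeR quasi-likelihood, adjusted p = 0.00532), with a 95% interval of -0.93 to -0.25. Against a 1.5-fold change it did not pass.

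PTGER2, which encodes EP2, had 12, 15 and 22 counts in the TPBC-PEG libraries, against 11, 18 and 16 counts in the PBS libraries. The groups overlapped at these low counts. The log2 fold change was 0.05 ± 0.39 (SE), and its 95% interval of -0.73 to 0.83 is wide enough to hold the PTGER4 value as well as a rise (edgeR quasi-likelihood, adjusted p = 0.937). Its sign turned without TPBC-PEG replicate 3 (-0.34) and without PBS replicate 1 (-0.19).

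HPGD, the enzyme that inactivates prostaglandin E2 by oxidation, was detected at a few reads. It had 4, 2 and 4 counts in the TPBC-PEG libraries, against 4, 5 and 6 counts in the PBS libraries. The sums were 10 counts with TPBC-PEG and 15 with PBS, a scaled ratio of 0.63 with a 95% exact counting interval of 0.253 to 1.5. This interval covers counting error only and holds a fall as well as a rise of up to 1.5-fold. No direction for HPGD was shown at this depth.

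**Figure D2:**
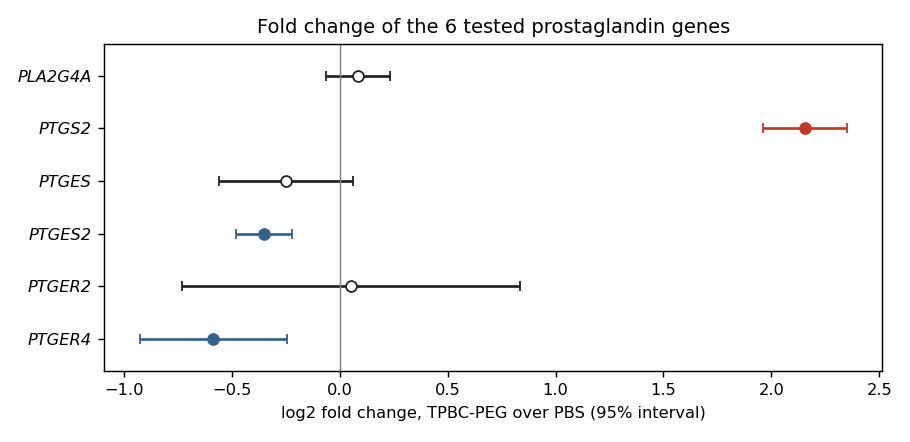
Log2 fold change of TPBC-PEG over PBS (points) with 95% intervals for the 6 tested genes; red marks a gene called higher, blue a gene called lower, and open points did not pass. PTGS2 stands at 2.16 and the other 5 lie between -0.59 and 0.08.

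Levels of different genes were compared per kilobase of exon, over the union of all annotated exons. In the TPBC-PEG libraries PTGS2 was the most abundant of the 8 at 20.5 ± 2.46 CPM per kb (SD, n = 3), followed by PTGES2 at 13.8 ± 0.742, PLA2G4A at 10.3 ± 0.421 and PTGES at 2.62 ± 0.39 CPM per kb. In the PBS libraries PTGES2 came first at 17.5 ± 1.83 CPM per kb (SD, n = 3), then PLA2G4A at 9.77 ± 0.89, PTGS2 at 4.6 ± 0.45 and PTGES at 3.14 ± 0.25 CPM per kb. PTGS2 was thus first with TPBC-PEG and the third with PBS, and in neither group did its 3 values overlap those of its neighbours in the order.

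The lower end of the order was the same in both groups. PTGER4 had 0.871 ± 0.0144 CPM per kb with TPBC-PEG and 1.31 ± 0.0847 with PBS, and PTGER2 had 0.367 ± 0.167 CPM per kb with TPBC-PEG and 0.348 ± 0.1 with PBS (SD, n = 3 each). HPGD, at 0.0333 ± 0.0144 CPM per kb with TPBC-PEG and 0.0521 ± 0.0154 with PBS, and PTGS1, at 0.0189 ± 0.00946 with TPBC-PEG and 0.0371 ± 0.0246 with PBS, came last (SD, n = 3 each). The values of HPGD and PTGS1 overlapped in each group, so their order does not hold beyond the spread. A gene that uses a shorter transcript than the exon union is understated on this scale.

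**Figure D3:**
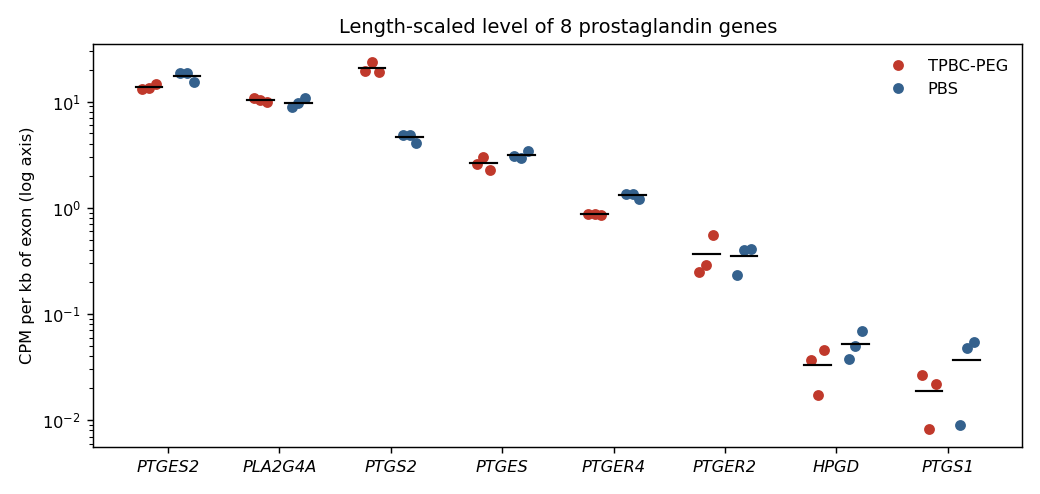
CPM per kilobase of exon on a log axis for the 8 genes in each library (points, TPBC-PEG left and PBS right of each gene; bars are means of 3), ordered by the PBS mean. PTGS2 has 20.5 CPM per kb with TPBC-PEG and 4.6 with PBS, and PTGS1 has 0.0189 with TPBC-PEG and 0.0371 with PBS.

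The genes whose pattern over the 6 libraries was most like that of PTGS2 were SLC7A11, DDIT4, HSPA5, GDF15 and ERO1B, out of 11320 genes that reached 5 CPM in a group. Likeness was the root-mean-square difference of log2 CPM after each gene was centred on its own mean. It was 0.0376 for SLC7A11, which encodes the cystine importer, 0.073 for DDIT4, 0.131 for HSPA5, 0.146 for GDF15 and 0.202 for ERO1B. SLC7A11 had 353 ± 32.4 CPM with TPBC-PEG and 81.4 ± 5.84 CPM with PBS (SD, n = 3 each). Like PTGS2, each of these genes was highest in TPBC-PEG replicate 2. They were picked for likeness over these same libraries, so the shared peak is no separate support. The measure is driven mostly by the difference between the groups and rests on 6 libraries. Exons of DDIT4 overlap an antisense gene over 41.2% of their length, so its counts are less certain where counting ignored strand.

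**Figure D4:**
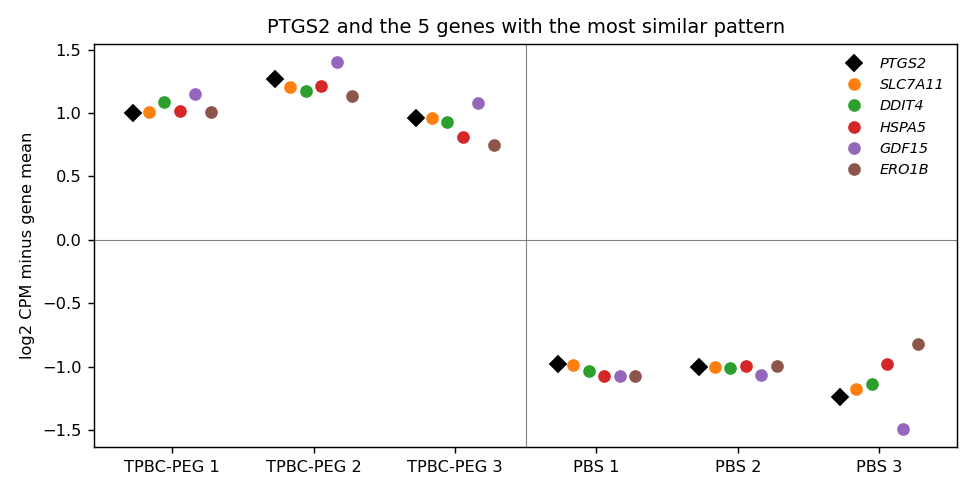
Log2 CPM minus the gene's mean over the 6 libraries for PTGS2 (black diamonds) and the 5 genes most like it, by library. PTGS2 lies between 0.96 and 1.27 in TPBC-PEG libraries and between -1.24 and -0.98 in PBS libraries.

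Other genes of the pathway were read from 7 lists of 100 genes. In none of the 4 lists for arachidonate release, other synthases, other receptors, and transport and breakdown was a gene called higher (edgeR quasi-likelihood, Benjamini-Hochberg over all genes), whereas 8 of the 28 tested were called lower, beside 16.2% and 16.9% of all genes tested. With library size alone as the scaling, 1 of the 28 was higher and 5 were lower. Against a 1.5-fold change, 0 of the 28 were higher and 0 were lower. Each of the remaining lists had at least 1 gene called higher, so the lack of rises holds for these 4 lists only. Of 18 genes that release or handle arachidonate, 12 were tested and 2 fell, with a median log2 fold change of -0.07, against 0.01 for all genes tested. ACSL4, which activates arachidonate for return to phospholipid, had 294, 290 and 285 CPM with TPBC-PEG and 343, 320 and 346 CPM with PBS, a log2 fold change of -0.22 ± 0.038 (SE). MBOAT7, which places arachidonate in phosphatidylinositol, was at -0.19 ± 0.057. MBOAT7 was not called without TPBC-PEG replicate 2 (edgeR quasi-likelihood, adjusted p = 0.0828), without PBS replicate 1 (0.0736) or with library size alone (0.053). MGLL, a lipase that frees arachidonate from monoacylglycerol, passed as higher with library size alone (0.12, edgeR quasi-likelihood, adjusted p = 0.0219), while ANXA1, an inhibitor of phospholipase A2, passed as lower with DESeq2 (-0.09, DESeq2 adjusted p = 0.0328).

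Of 8 other prostanoid synthases 6 were tested and 3 fell, beside 16.9% of all genes tested, with a median of -0.24. AKR1C3, a reductase that makes prostaglandin F, had 22, 32 and 20 counts with TPBC-PEG and 66, 45 and 38 counts with PBS, a log2 fold change of -1.08 ± 0.26 (SE; edgeR quasi-likelihood, adjusted p = 0.000748). PRXL2B, also described as a prostaglandin F synthase, was at -0.35 ± 0.075, and 13.4% of its exon length overlaps another gene. PTGES3, which encodes the HSP90 co-chaperone p23 and is also described as a cytosolic prostaglandin E synthase, was at 397 ± 11.5 CPM with TPBC-PEG and 463 ± 10.9 CPM with PBS (SD, n = 3 each). Its log2 fold change was -0.22 ± 0.0365. AKR1B1, an aldose reductase that also makes prostaglandin F, was not called (-0.12, edgeR quasi-likelihood, adjusted p = 0.0544) but was with DESeq2 size factors (0.0429), with the 1 CPM filter (0.0465), without TPBC-PEG replicate 2 (0.0429) and without PBS replicate 3 (0.0265). PTGDS and HPGDS, the prostaglandin D synthases, had 0 counts in all 6 libraries.

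Of 8 genes in the list of other prostanoid receptors 3 were tested and, beside 16.9% of all genes tested, 1 fell. This was PTGFRN, which encodes a partner protein of the prostaglandin F receptor and no receptor itself, at 151 ± 10.4 CPM with TPBC-PEG and 178 ± 5.44 CPM with PBS (SD, n = 3 each). PTGFR and TBXA2R, receptors for prostaglandin F and thromboxane, did not pass, at 0.63 ± 0.37 and -0.50 ± 0.34 (SE). PTGIR, the prostacyclin receptor gene, had 21, 13 and 8 counts with TPBC-PEG and 8, 4 and 4 counts with PBS. It was too low to be tested with all libraries. It passed the filter without TPBC-PEG replicate 3 and without PBS replicate 1, at 1.48 and 1.62, but through the libraries where it is high, so these fits give no support for a difference.

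The list for transport and breakdown has 8 entries, of which HPGDS is a synthase that also stands in the synthase list. The other 7 were tested and 2 fell, beside 16.9% of all genes tested, with a median of -0.08. SLCO2A1, which imports prostaglandins, had 6.74 ± 1.07 CPM with TPBC-PEG and 8.67 ± 0.684 CPM with PBS, and CBR1, a carbonyl reductase that acts on prostaglandin E2, had 34.5 ± 2.24 CPM with TPBC-PEG and 39 ± 1.92 CPM with PBS (SD, n = 3 each). Neither call was stable, and 18.9% of the exon length of CBR1 overlaps another gene. SLCO2A1 was not called without TPBC-PEG replicate 1, TPBC-PEG replicate 2 or PBS replicate 3 (edgeR quasi-likelihood, adjusted p = 0.11, 0.153 and 0.12), with library size alone (0.0553) or with DESeq2 (0.102). CBR1 was not called without TPBC-PEG replicate 2, PBS replicate 1 or PBS replicate 2 (edgeR quasi-likelihood, adjusted p = 0.224, 0.102 and 0.0769), with library size alone (0.117) or with DESeq2 (0.0815). ABCC4, which exports prostaglandin E2, did not pass, at 0.03 ± 0.052 (SE).

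In the lipoxygenase branch, which makes leukotrienes from the same arachidonate, 6 of 14 genes were tested and 1 rose, with a median of 0.20. Over all genes tested, 16.2% were called higher and 16.9% lower, and so few genes show little either way. ALOXE3, a lipoxygenase family enzyme known from the skin barrier, had 128, 120 and 119 counts with TPBC-PEG and 66, 77 and 44 counts with PBS, a log2 fold change of 0.90 ± 0.17 (SE; edgeR quasi-likelihood, adjusted p = 2.61e-05). The groups did not overlap. ALOX12 had 0 counts in all libraries, and ALOX5 had 8, 10 and 9 counts with TPBC-PEG and 11, 3 and 11 counts with PBS. LTB4R, a leukotriene B4 receptor gene, was called higher without PBS replicate 2 (0.21, edgeR quasi-likelihood, adjusted p = 0.0454) and with library size alone (0.20, 0.029), and LTA4H with library size alone (0.14, 0.0147).

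**Figure D5:**
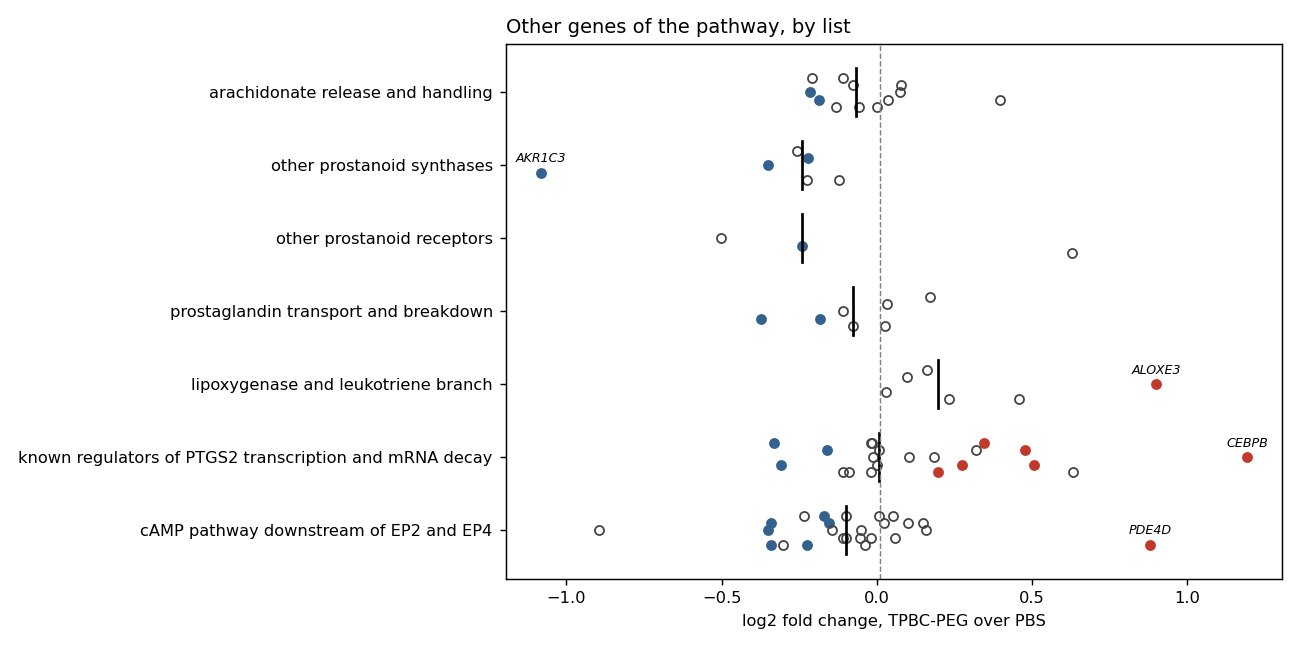
Log2 fold change of TPBC-PEG over PBS for the tested genes of 7 lists (points; red called higher, blue called lower, open not passed), with each list's median (black bar) and the median of all genes tested (dashed line at 0.01). Calls in the lists for release, synthases, receptors and transport lie below 0, and CEBPB stands highest at 1.19.

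Of 21 genes known to act on PTGS2 transcription or on the decay of its mRNA, all were tested, 6 rose and 3 fell, beside 16.2% and 16.9% of all genes tested, with a median of 0.01. CEBPB, a factor that binds the C/EBP site of the PTGS2 promoter, had 81.1, 77.1 and 79.1 CPM with TPBC-PEG, against 43, 32.9 and 27.1 CPM with PBS. Every TPBC-PEG library was above every PBS library, and the PBS libraries were spread widely. The log2 fold change was 1.19 ± 0.17 (SE; edgeR quasi-likelihood, adjusted p = 0.00644), and 11.8% of the exon length of CEBPB overlaps its antisense gene. ATF4, the transcription factor of the integrated stress response, rose by 0.51 ± 0.037, and the other 3 besides ZFP36 were ZFP36L1 at 0.35, NFE2L2 at 0.27 and ATF2 at 0.20. For NFE2L2, 20.9% of the exon length overlaps other genes. ATF2 was not called without PBS replicate 2 (edgeR quasi-likelihood, adjusted p = 0.0553).

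Genes for proteins that bind AU-rich elements in mRNA went both ways. ZFP36, which speeds decay of such mRNAs, was called higher at 0.48 ± 0.17 (SE; edgeR quasi-likelihood, adjusted p = 0.0248). That call was lost without TPBC-PEG replicate 2 or 3 (edgeR quasi-likelihood, adjusted p = 0.0824 and 0.137), without PBS replicate 1 or 3 (0.0616 and 0.129) and with DESeq2 (0.111). ZFP36L1, of the same family, rose to 150 ± 4.68 CPM with TPBC-PEG, against 118 ± 2.25 CPM with PBS (SD, n = 3 each; edgeR quasi-likelihood, adjusted p = 3.73e-09). ZFP36L2, TIA1, TIAL1 and CELF2 did not pass, at -0.11, -0.02, -0.09 and -0.02. ZFP36L2 was called lower without TPBC-PEG replicate 1 (edgeR quasi-likelihood, adjusted p = 0.0268) and without PBS replicate 2 (0.0426). KHSRP, which also promotes decay, fell to 208 ± 7.22 CPM with TPBC-PEG, against 262 ± 7.59 CPM with PBS, and ELAVL1, the stabilising protein HuR, fell to 113 ± 4.51 CPM with TPBC-PEG, against 140 ± 8.19 CPM with PBS (SD, n = 3 each). RELA, a subunit of NF-kB, was called lower at -0.16 ± 0.062 (SE; edgeR quasi-likelihood, adjusted p = 0.0379) with overlapping groups. The RELA call was lost without TPBC-PEG replicate 1 or 3 (edgeR quasi-likelihood, adjusted p = 0.232 and 0.0595), without PBS replicate 2 or 3 (0.117 and 0.168), with library size alone (0.146), with DESeq2 (0.0908) and with limma-voom (0.0548). NFKB1, JUN, FOS and CREB1 did not pass, at 0.10, 0.01, 0.18 and -0.02.

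Downstream of EP2 and EP4, all 25 genes of the cyclic AMP pathway were tested, 1 rose and 6 fell, with a median of -0.10. PDE4D, a phosphodiesterase that degrades cyclic AMP, had 47.8, 46 and 40.1 CPM with TPBC-PEG, against 25.9, 23.2 and 23.7 CPM with PBS. The groups were well apart, with a log2 fold change of 0.88 ± 0.072 (SE; edgeR quasi-likelihood, adjusted p = 2.48e-14). Its relative PDE4A fell, at 17.3 ± 0.828 CPM with TPBC-PEG and 21.8 ± 3.19 CPM with PBS (SD, n = 3 each), a call lost without PBS replicate 1 (edgeR quasi-likelihood, adjusted p = 0.0666).

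PRKACA, a catalytic subunit of protein kinase A, was at -0.35 ± 0.068 (SE) and ADCY3, an adenylate cyclase gene with 26% of its exon length shared with other genes, at -0.34 ± 0.055. The other falls were ARRB2 at -0.23, PDE4B at -0.17 and PRKACB at -0.15. PRKACB was not called with library size alone (edgeR quasi-likelihood, adjusted p = 0.0828) or without TPBC-PEG replicate 2 (0.0705). PDE4B, whose groups overlapped, was lost in 5 of the 6 fits that leave out 1 library, all but that without PBS replicate 1, with an edgeR quasi-likelihood adjusted p of 0.0639 to 0.218. It was also lost with library size alone (0.144), upper quartile scaling (0.0504), DESeq2 (0.0995) and limma-voom (0.0674, each an adjusted p). GNAS, the stimulatory G protein that couples both receptors to adenylate cyclase, did not pass, at -0.04 ± 0.035 (SE). With library size alone as the scaling, 3 genes of this list were higher, CREM and CRTC2 being added, and 4 were lower. The shares called over all genes tested were 16.2% higher and 16.9% lower.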

How the data were processed

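The deposited table holds raw counts, 1 column per library and 60683 Ensembl gene rows. HISAT2 and GRCh38 are named as aligner and build per the submitters' processing notes. For the counting program, annotation and strand setting, the sources used here give nothing. Columns were matched to samples by the labels' descriptions, and 0 value columns were left unmatched. The members and gene lists were chosen with earlier results of these data known.

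Symbols came from a gene name table (42013 rows matched), and coordinates, exon lengths and overlaps from GENCODE release 29. Counts were analysed with edgeR 4.0.16 in R 4.3.3: filterByExpr (minimum count 10, total 15), TMM scaling, a robust quasi-likelihood fit and test on group alone, and Benjamini-Hochberg adjustment over 15846 genes. CPM use the TMM-scaled library size, and log2 CPM a prior count of 2. The SE comes from the F statistic and intervals are at 95%. Shares were compared with exact permutation tests (scipy 1.17.1). Intervals on counts cover counting error only, since the counts do not tell PCR copies from separate molecules. No library was a copy of another: within groups, chi-square over its degrees of freedom was 2.25 to 4.29.

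Named were the 8 member genes, up to 3 called genes per direction with the largest change in each list, and the 5 genes most like PTGS2; others named beside them were chosen after their values were seen. Alternatives were DESeq2 size factors, library size alone, upper quartile scaling, no filter, 1 CPM in 3 libraries, DESeq2 1.42.0, limma-voom (limma 3.58.1), a replicate block, non-robust estimation, leaving out each library and testing against a 1.5-fold change. The code was tested on simulated data.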

Additional observations from a re-analysis of the deposited data

How the results depend on the processing

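The rise of PTGS2 kept its direction and its call under every setting tried, with a log2 fold change of 2.05 without TPBC-PEG replicate 2 to 2.21 without TPBC-PEG replicate 3. PTGES2 and PTGER4 kept their calls except against a 1.5-fold change, where the number of member genes called lower was 0 and the adjusted p was 1 for both, at -0.35 and -0.59. The PTGER4 fall, to 0.666 of the PBS level, is itself about 1.5-fold, but its 95% interval of -0.93 to -0.25 also holds smaller falls. That test asks for a change reliably beyond 1.5-fold. Under it 131 genes were higher and 14 lower over the whole table. PTGER2 ran from -0.34 (without TPBC-PEG replicate 3) to 0.26 (without TPBC-PEG replicate 1) and was also reversed without PBS replicate 1 (-0.19). The PTGES share difference ran from -0.545 (without TPBC-PEG replicate 2) to 2.06 percentage points (without PBS replicate 3) and was -0.183 without PBS replicate 2; the cause was not tested. Of 304 alternative values for the named list genes 260 stayed on the same side of the threshold, 44 lost the call and 0 reversed. The lost calls include those against a 1.5-fold change, which is a stricter question and not a change of processing. The labels do not say whether equal replicate numbers mark matched samples, and the main fit did not pair them. The deviations of same-numbered libraries from their group means correlated at 0.003, 0.065 and -0.015, so no shared replicate effect was visible. With the replicate block 2531 genes were higher and 2644 lower, and PTGS2 was at 2.15. Counts under 25 in every library limit PTGS1, HPGD and PTGER2.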
